A study of Mus musculus with 2 samples.

Results

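The cells described here are lymphocytes with abundant transcripts of granzyme C (Gzmc), 477 of the 13977 cells kept from mouse prostate tissue. They were chosen on measured values: 10 or more UMIs of Gzmc and Gzmf together, C1qa, C1qb and C1qc under 0.2% of UMIs, S100a8 and S100a9 under 0.2%, at most 1 UMI of Cd79a, and at most 1 UMI of Cd8a and Cd8b1. A UMI marks 1 captured mRNA molecule. The rule took 244 of 6209 cells of the normal adjacent library and 233 of 7768 cells of the tumour library. The levels of the genes in the rule are therefore descriptions of the choice and not results. The working name gave both granzyme C and granzyme F, but 239 and 231 of these cells reached 10 UMIs on Gzmc alone, so they are called Gzmc-high cells below. Where a pair of values is given, the first is from normal adjacent tissue and the second from tumour.

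The study profiled the immune infiltrate of mouse prostate cancer by droplet single-cell RNA sequencing, with 1 library of tumour tissue and 1 of normal tissue beside a tumour, whose title calls it healthy. Both libraries held CD45+ leukocytes and CD45- cells sorted by flow cytometry and then loaded together, so the sort and the loading set the ratio of immune to other cells. The labels used here name no strain, genotype, tumour model, age or number of animals. With 1 library per group there was no test between the groups, and the intervals given (95%) cover counting error only.

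Granzymes are serine proteases that cytotoxic lymphocytes keep in granules and release into a target cell through pores made by perforin. Granzymes A and B are the usual granzymes of killer T cells and circulating natural killer (NK) cells, while granzyme C and its close relatives are expressed in mice after strong stimulation and in innate-like lymphocytes that live in tissues. Such tissue-resident cells are known for the integrins CD49a and CD103, which tether them to matrix and epithelium, and for low levels of the receptors that return lymphocytes to lymph and blood.

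The annotated starts of the genes for granzymes B, C, D, E, F and G lie within 142 kb of mouse chromosome 14 (build GRCm38.p6), all on the minus strand. The 250 bases before the start of 4 of them are shown because Gzmc was carried by nearly every Gzmc-high cell, Gzmf and Gzmd by few, and Gzmb by most NK cells as well. Capitals mark the cAMP response element letters TGACGTCA and the Runx core letters TGTGGT, or ACCACA when read on the other strand. The windows, taken from RefSeq, are upstream of the annotated start, at chr14:56234658-56234907 for Gzmc, chr14:56211408-56211657 for Gzmf, chr14:56132594-56132843 for Gzmd and chr14:56262335-56262584 for Gzmb.
Gzmc: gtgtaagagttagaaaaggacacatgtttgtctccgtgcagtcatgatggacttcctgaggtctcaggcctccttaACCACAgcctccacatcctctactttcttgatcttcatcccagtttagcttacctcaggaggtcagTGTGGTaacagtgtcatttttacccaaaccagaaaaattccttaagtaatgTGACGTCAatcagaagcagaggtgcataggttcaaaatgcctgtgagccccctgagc
Gzmf: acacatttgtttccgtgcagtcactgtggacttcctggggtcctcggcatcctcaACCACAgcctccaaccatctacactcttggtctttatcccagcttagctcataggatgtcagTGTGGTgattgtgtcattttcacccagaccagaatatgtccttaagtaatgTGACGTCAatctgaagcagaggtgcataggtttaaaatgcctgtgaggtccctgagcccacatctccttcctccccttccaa
Gzmd: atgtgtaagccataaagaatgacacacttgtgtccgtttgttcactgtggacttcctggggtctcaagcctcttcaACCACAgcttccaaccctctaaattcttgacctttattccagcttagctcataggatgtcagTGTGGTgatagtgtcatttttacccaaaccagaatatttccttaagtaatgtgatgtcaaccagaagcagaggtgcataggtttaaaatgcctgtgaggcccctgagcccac
Gzmb: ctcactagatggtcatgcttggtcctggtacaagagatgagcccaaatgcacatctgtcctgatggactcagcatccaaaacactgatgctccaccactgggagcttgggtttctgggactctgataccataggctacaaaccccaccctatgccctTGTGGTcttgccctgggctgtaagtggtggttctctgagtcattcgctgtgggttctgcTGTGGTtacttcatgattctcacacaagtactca
TGACGTCA stood 49 bases before the start of Gzmc, 74 before that of Gzmf and 69 before that of Gzmg, and was not found in the windows of Gzmd, Gzme and Gzmb. Over all 32536 such windows in the table, 1.56% held it. The Runx core occurred at 2 places in each of the 6 windows, against 14.0% of all windows holding at least 1. No match overlapped another. Over the 250 bases, identity with the Gzmc window was 71.5% for Gzmf, 81.3% for Gzmd, 81.8% for Gzme, 74.5% for Gzmg and 50.2% for Gzmb.

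Gzmc, Xcl1 and Ctsw were detected in nearly every Gzmc-high cell, whereas Gzmf and Gzmd were each confined to a minority. Gzmc stood at 13378 CPM (counts per 1e6 UMIs, summed over these cells, 13252 to 13506) in normal adjacent tissue and at 12991 CPM (12855 to 13129) in tumour, with a UMI in 99.6% and 100% of cells. The summed Gzmc and Gzmf count had a median of 116.5 and 110 UMIs per cell. In B cells with no UMI of Nkg7, Ctsw, Thy1 or Lck (179 and 148 cells), which should lack the gene, Gzmc was found in 16.2% and 11.5% of cells at 27.7 and 12.2 CPM. The B cells were defined by Cd79a first (406 and 311 cells, with Gzmc in 24.9% and 21.5%), and the smaller set was taken after values had been seen, which removes barcodes with T or NK transcripts by construction. The smaller set had medians of 4691 and 5029.5 UMIs per cell, against 10949.5 and 9650 for Gzmc-high cells.

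Of the other marker genes in the working definition, Xcl1, the chemokine that attracts cross-presenting dendritic cells, was at 2988 and 3238 CPM in 99.2% and 96.6% of cells. Ctsw, the cysteine protease cathepsin W of cytotoxic lymphocytes, was at 1273 and 1200 CPM in 99.6% and 98.7%. Cd7, a surface protein of T and NK lineage cells, was at 694 and 752 CPM in 89.3% and 85.8%. These markers of the definition were widely carried. Gzmf, by contrast, had a UMI in 31 cells (12.7%) and 28 cells (12.02%), and 1 cell held 50.3% and 44.3% of all Gzmf UMIs of its library. Gzmd had a UMI in 13.1% and 10.7% of cells at 318 and 231 CPM, with 44.0% and 38.7% of its UMIs in 1 cell.

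**Figure D1:**
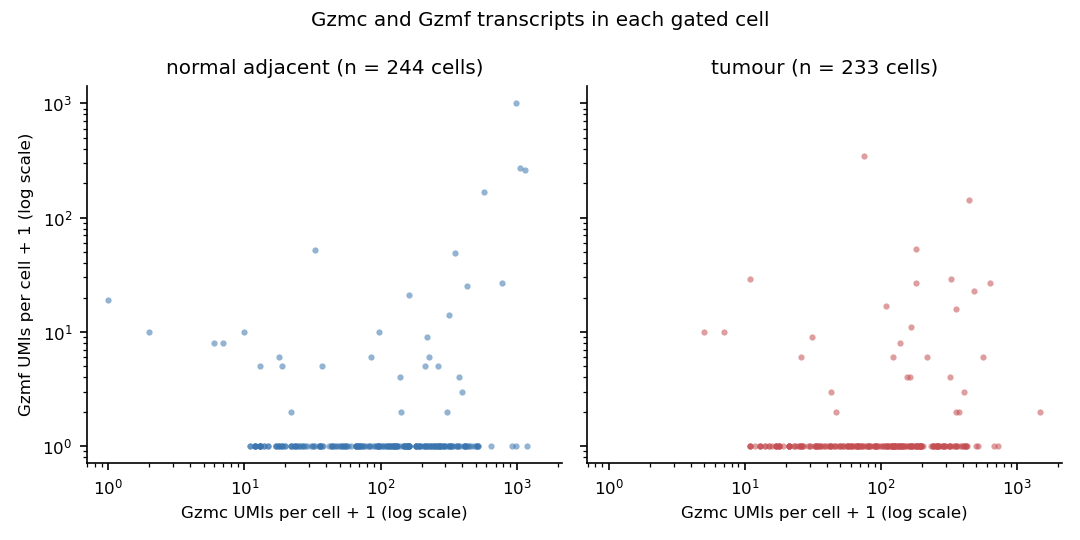
Gzmc (horizontal) and Gzmf (vertical) UMIs per cell, each plus 1 and on log axes, in the 244 Gzmc-high cells of normal adjacent tissue and the 233 of tumour; each point is a cell. Most cells lie on the floor of the vertical axis with no Gzmf UMI, and Gzmf exceeded Gzmc in 6 and 4 cells.

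Cells with 3 or more Gzmf UMIs (27 and 22) carried more of the neighbouring granzymes than cells with none (213 and 205). Gzmg was at 437 against 8.95 CPM in normal adjacent tissue and 144 against 4.34 CPM in tumour, 48.8-fold and 33.2-fold higher. Gzmd was at 2580 against 38.0 CPM and 731 against 66.5 CPM, which is 68.0-fold (55.5 to 83.9) and 11.0-fold (8.88 to 13.6), although 1 cell gave 49.5% and 66.3% of the Gzmd UMIs of that class. Gzme was at 994 against 109 CPM and 569 against 75.6 CPM. The lead of the Gzmf cells was smaller for Gzmb, at 3926 against 2057 and 3683 against 2116 CPM, and Ncr1 was at 126 against 149 and 172 against 162 CPM. Between 9.12% and 17.9% of the 50-base windows in the last 400 bases of Gzmd, Gzme, Gzmf and Gzmg transcripts are shared with another granzyme. For Gzmn, a further granzyme gene compared, the share was 15.4%. Reads could therefore move among these genes, and the separate levels of Gzmd, Gzme, Gzmf and Gzmg are uncertain. No window of Gzma, Gzmb or Gzmc is shared.

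Among the remaining cytolytic genes, granzyme B (Gzmb) was at 2272 and 2360 CPM in 95.1% and 94.4% of Gzmc-high cells. Prf1, which encodes perforin, was at 109 and 101 CPM in 54.5% and 48.9%. Gzma, granzyme A, was at 236 and 284 CPM, but only 21.3% and 6.44% of cells had a UMI, and 1 cell held 34.4% and 46.6% of the Gzma total. Gzmk and Gzmm, the granzymes of memory-type T cells and of NK cells, were near 0, at 0.940 and 0.374 CPM for Gzmk and 1.25 and 0.749 CPM for Gzmm.

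Cells just below the limit of 10 UMIs resembled those just above it in part. With 5 to 9 UMIs of Gzmc and Gzmf (34 and 18 cells), Xcl1 was detected in 88.2% and 83.3%, against 94.1% and 95.7% with 10 to 19 UMIs (34 and 23 cells). Ncr1 was detected in 38.2% and 55.6% just below and 61.8% and 47.8% just above. Cd3e was detected in 29.4% and 44.4% just below and 41.2% and 47.8% just above. The limit on Cd8a and Cd8b1 left out 47 and 42 further cells with 10 or more UMIs. Those cells carried Cd3e in 100% and 97.6% and Trac in 93.6% and 81.0%, with Gzmc at 13965 and 9011 CPM.

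Placed by lineage genes, most Gzmc-high cells had NK-type receptors and signalling chains, little or no CD3, and almost no Eomes. Ncr1, which encodes the NK receptor NKp46, was detected in 73.8% and 68.7% of cells, and Klrb1c, which encodes NK1.1, in 70.1% and 71.2%. In all B cells the shares were 6.40% and 5.14% for Ncr1 and 7.14% and 6.43% for Klrb1c, and in the smaller set of B cells, selected against such transcripts, no cell had a UMI of either (0 of 179 and 0 of 148). Fcer1g, a signalling chain of innate receptors, was detected in 99.6% and 100%, against 52.7% and 54.0% of all B cells and 29.1% and 34.5% of the smaller set. Tyrobp, the adaptor DAP12, was detected in 98.0% and 98.3%, against 65.0% and 60.8% of all B cells.

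The T cell genes gave a mixed picture. Cd3d was detected in 23.0% and 21.5% of Gzmc-high cells, Cd3e in 21.7% and 18.5%, and Trac, the constant region of the T cell receptor alpha chain, in 27.9% and 26.2%. In all B cells these shares were higher than in Gzmc-high cells, at 29.6% and 32.2% for Cd3d, 29.6% and 29.9% for Cd3e, and 31.8% and 31.5% for Trac. In the smaller set they were 3.91% and 6.08%, 3.35% and 3.38%, and 7.26% and 6.76%, so whether Cd3d, Cd3e and Trac exceed the background depends on which B cells are used. Cd3g was more widespread at 43.4% and 45.5%, against 36.2% and 34.4% in all B cells and 12.3% and 9.46% in the smaller set. Trbc1, a constant region of the beta chain, reached 92.6% and 90.6%, against 26.4% and 24.4% in all B cells. It was also present in 71.2% and 75.2% of the NK cells described next, which lack Cd3e by definition. Trdc, the delta chain constant region, was found in 8.20% and 11.2% of Gzmc-high cells.

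The cells were set beside conventional NK cells of the same libraries, 146 and 133 cells with 2 or more UMIs of Eomes and Prf1 together and none of Gzmc, Gzmf or Cd3e, under the same limits. NK cells had fewer UMIs, with medians of 5071.5 and 4291, so cells were thinned to 2000 UMIs to compare shares, which left out 7 and 4 Gzmc-high cells below that depth. At 2000 UMIs, Ncr1 was detected in 27.8% and 31.4% of Gzmc-high cells and in 29.8% and 35.9% of NK cells. Klrb1c was detected in 30.0% and 24.9% against 29.1% and 28.1%, and Tbx21, which encodes the transcription factor T-bet, in 22.4% and 24.5% against 19.1% and 14.8%. The intervals of the 2 populations overlapped for each of these 3 genes in both libraries, with the widest gap for Tbx21 in tumour (19.0 to 30.5 against 9.18 to 22.2). Trac was at 9.70% and 8.73% against 7.09% and 4.69%. Eomes was at 1.27% and 0.873% of Gzmc-high cells against 55.3% and 67.2% of NK cells, whose gate used it. Without thinning, Eomes was detected in 3.28% and 4.29% of Gzmc-high cells and 82.2% and 84.2% of NK cells.

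**Figure D2:**
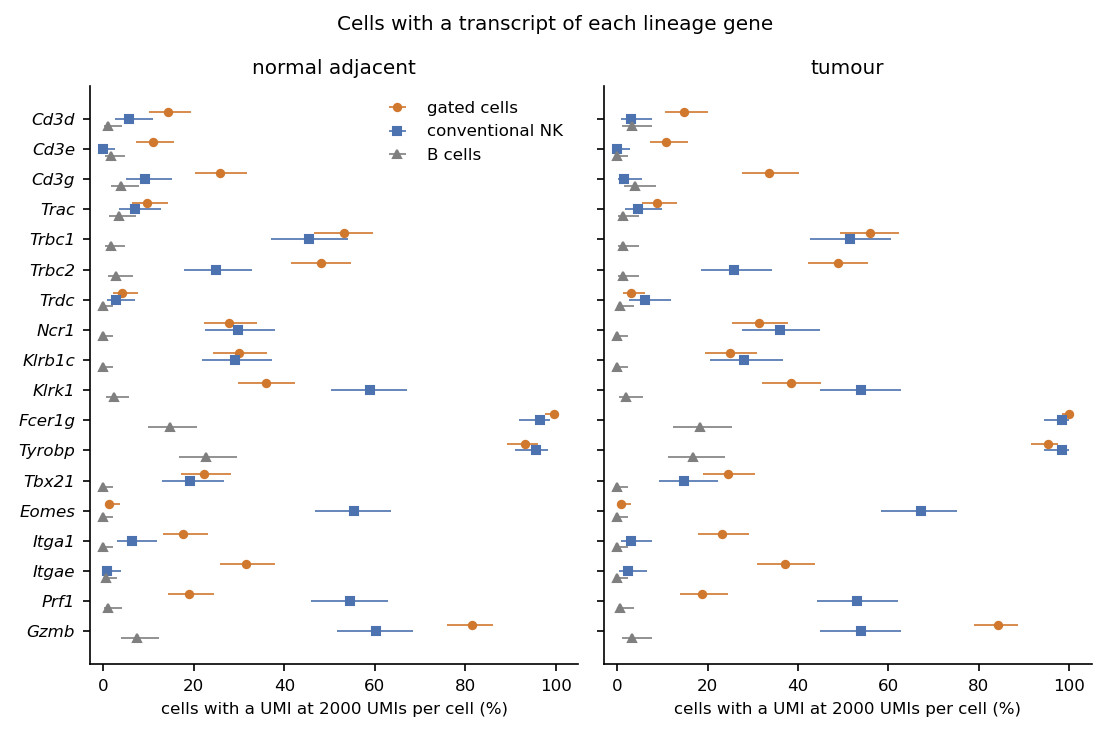
Share of cells with a UMI of each lineage gene after thinning to 2000 UMIs per cell (horizontal, percent) in Gzmc-high (gated) cells, conventional NK cells and the smaller set of B cells of each library; bars are 95% exact binomial intervals. Ncr1 and Klrb1c overlap between Gzmc-high and NK cells, and Eomes stands near 0 in Gzmc-high cells, with 1.27% and 0.873% of cells.

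CD3 transcripts split the Gzmc-high cells. Cd3d, Cd3e and Cd3g together were at 0 UMIs in 124 and 123 cells, at 1 or 2 in 49 and 24, and at 3 or more in 71 and 86, of which 53 and 45 had 12 or more. Within the last class, 23 and 37 cells had 3 or more UMIs of Cd3g and none of Cd3d or Cd3e, and 45 and 43 had 3 or more of Cd3d and Cd3e. The Cd3g-only cells were close to the cells without CD3 in the T cell receptor genes: Trac was at 33.4 and 16.1 CPM against 20.4 and 16.5 CPM. Cells with Cd3d and Cd3e had Trac at 174 and 190 CPM and Trdc at 148 and 237 CPM, against Trdc at 1.46 and 5.99 CPM without CD3. Trbc1 was near 1 level in all 3 classes, at 417 and 428 CPM without CD3, 424 and 379 with Cd3g only, and 431 and 486 with Cd3d and Cd3e. Trac and Trdc mark alpha-beta and gamma-delta T cells. In all Gzmc-high cells, 36 and 26 had 2 or more UMIs of Trac, 14 and 14 had 2 or more of Trdc, and 5 and 0 had both.

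NK receptors were present on both sides of this split. Ncr1 had a UMI in 141 and 131 of the 179 and 181 cells without Cd3d and Cd3e, and in 22 and 24 of the 45 and 43 cells with 3 or more UMIs of them. Its level was 194 and 196 CPM without CD3, 167 and 133 with Cd3g only, and 50.2 and 83.6 with Cd3d and Cd3e. Ncr1 and Klrb1c were lower in the cells with Cd3d and Cd3e: Klrb1c was at 160 and 154, 170 and 163, and 61.3 and 118 CPM in the same order. Itgae, which encodes CD103, was at 181 and 195, 341 and 278, and 198 and 289 CPM. Gzmc was at 14094 and 14048, 15768 and 14142, and 9087 and 8568 CPM.

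**Figure D3:**
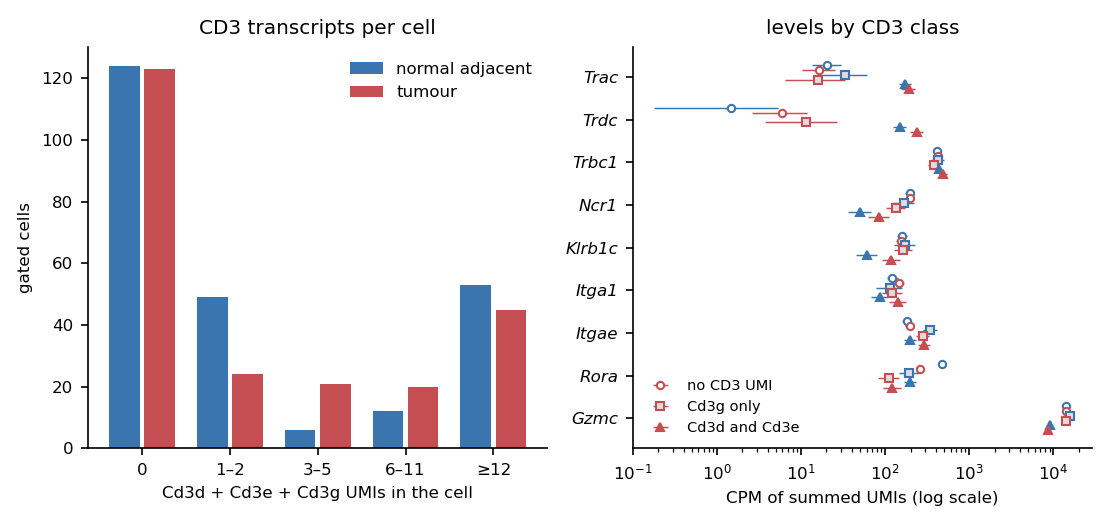
Left, number of Gzmc-high cells (vertical) by their summed Cd3d, Cd3e and Cd3g UMIs, normal adjacent in blue and tumour in red; right, CPM of summed UMIs (log axis) for 9 genes in cells with no CD3 UMI, with 3 or more Cd3g UMIs only, and with 3 or more UMIs of Cd3d and Cd3e, with 95% Poisson intervals and values of 0 not drawn. The class without CD3 is the largest in both libraries (124 and 123 cells), and Trac and Trdc stand apart only in the class with Cd3d and Cd3e.

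Against cells without CD3, cells with 3 or more CD3 UMIs had 66 of 7331 genes at least 2-fold higher in both libraries (0.9%) and 24 at least 2-fold lower (0.327%). Beyond the T cell receptor genes, the higher genes included 3 of the 22 NK receptor genes measured, Klra1, Klra7 and Klra9. How alike the transcripts of these related genes are was not checked here, so their separate counts are uncertain. Klra1, which encodes the inhibitory receptor Ly49A, was at 3.64 and 11.2 CPM without CD3 and at 184 and 298 CPM with Cd3d and Cd3e, where 60.0% and 69.8% of cells had a UMI. Klra7 went from 13.8 and 30.0 to 200 and 482 CPM between the same classes. Il17a, the cytokine interleukin-17A made by some gamma-delta and helper T cells, was at 3.64 and 3.75 CPM without CD3 and 102 and 284 CPM with Cd3d and Cd3e, in 17.8% and 23.3% of those cells. The gamma chain constant region Tcrg-C2 was at 2.18 and 0.749 against 74.7 and 120 CPM. Il17a and the receptor genes Trdc and Tcrg-C2 were thus carried by the same class, without a test of whether they lay in the same cells.

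The cells without CD3 had more of a different set. Upp1, uridine phosphorylase, was at 96.1 and 81.7 CPM without CD3 and 17.2 and 6.96 CPM with Cd3d and Cd3e. Rora, which encodes the transcription factor ROR-alpha needed by innate lymphoid cells, was at 470 and 256 against 197 and 122 CPM. Kit, the stem cell factor receptor, was at 66.3 and 56.9 against 30.6 and 8.70 CPM, and Pecam1, which encodes the adhesion protein CD31, at 155 and 131 against 33.1 and 36.6 CPM. All 4 genes were lower with Cd3d and Cd3e in both libraries. Between cells with 3 or more CD3 UMIs and cells with none, Kit was not past 2-fold in both libraries, with log2 ratios of -0.867 and -1.38. Markers of dendritic cells, summed over the list, took 3899 and 6573 CPM without CD3 and 13557 and 15206 CPM with Cd3d and Cd3e, and their part in these differences was not tested. When cells with 0.2% or more of UMIs from another lineage were left out, 26 genes were past 2-fold higher and 18 lower.

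Against conventional NK cells, Gzmc-high cells had more transcripts of tissue-residency genes and fewer of genes of circulating NK cells. Of 8355 genes with enough UMIs, 371 were at least 2-fold higher in both libraries (4.44%) and 246 at least 2-fold lower (2.94%), with a median log2 ratio over all genes of -0.10 and -0.03. Of 17 genes of the residency list tested, 11 were past 2-fold higher and 0 lower, with median log2 ratios of 1.40 and 2.69. That count stood against 4.44% of all genes tested. Of 15 genes of the circulation and egress list, 12 were past 2-fold lower and 0 higher, with medians of -2.52 and -2.32, against 2.94% of all genes. Eomes, Prf1, Gzmc, Gzmf and Cd3e belong to the gates and are not read as results, although Eomes is among the 12.

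Itgae, which encodes CD103, was at 2.32 CPM in NK cells and 199 in Gzmc-high cells of normal adjacent tissue, and at 8.47 and 227 CPM in tumour, 85.9-fold (23.7 to 711) and 26.8-fold (12.3 to 73.4) higher. Itga1, which encodes CD49a, went from 37.1 to 108 CPM and from 14.1 to 141 CPM, 2.90-fold (2.01 to 4.30) and 10.0-fold higher. Cxcr6, a chemokine receptor of tissue-resident lymphocytes, was at 32.5 and 385 CPM and at 8.47 and 304 CPM. All 3 residency receptors were thus higher in both libraries. Ncr1, Itga1 and Itgae were detected together in 86 and 82 Gzmc-high cells. Inpp4b, a phosphoinositide phosphatase, went from 19.7 to 172 and from 29.6 to 235 CPM. Il7r, the interleukin-7 receptor, went from 9.28 to 41.1 and from 2.82 to 27.7 CPM. Tnfsf10, the death ligand TRAIL found on liver-type innate lymphoid cells, went from 19.7 to 48.9 and from 2.82 to 75.6 CPM.

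The egress genes went the other way. Klf2, the transcription factor that maintains egress receptors, was at 132 and 81.6 against 804 and 870 CPM, and S1pr1, the receptor for exit into lymph and blood, at 5.02 and 3.37 against 32.5 and 25.4 CPM. Itga2, which encodes CD49b of circulating NK cells, was at 4.07 and 4.87 against 95.1 and 103 CPM. Each of these 3 genes was past 2-fold lower in both libraries. Itgam, which encodes CD11b of mature NK cells, was at 20.1 and 20.6 against 74.2 and 103 CPM, and Zeb2, a factor of NK maturation, at 28.2 and 36.7 against 80.0 and 131 CPM.

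**Figure D4:**
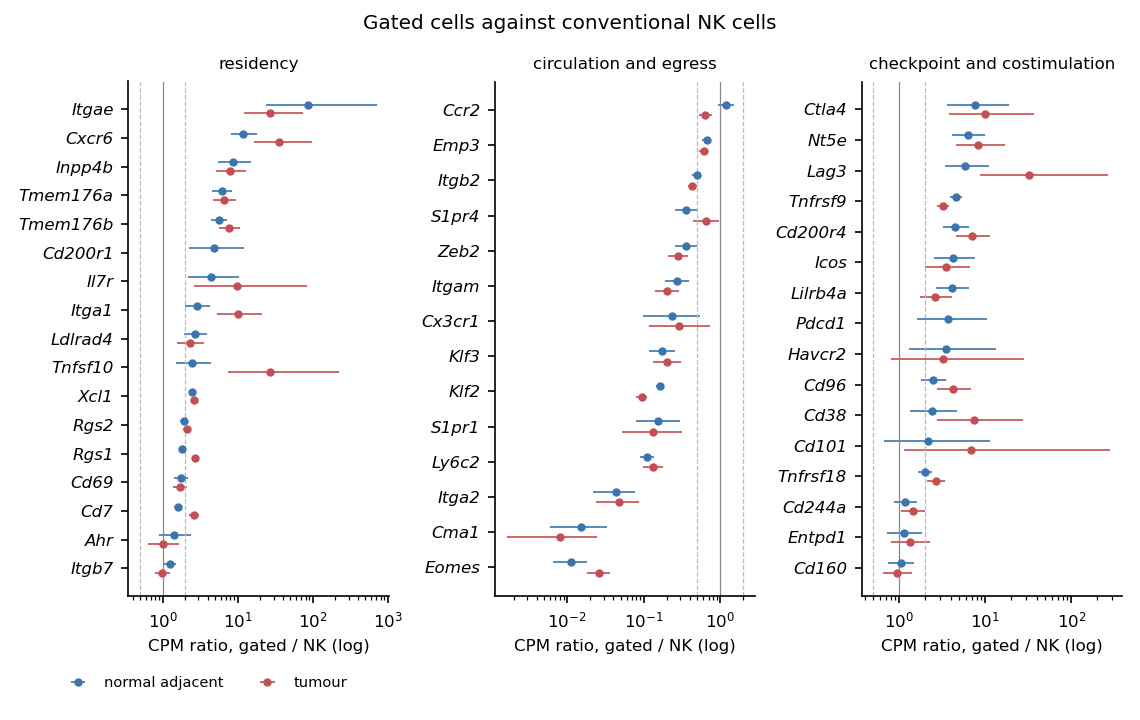
Ratio of CPM in Gzmc-high (gated) cells to that in conventional NK cells (log axis) for the genes of 3 lists, normal adjacent in blue and tumour in red, with 95% exact intervals; dashed lines mark 2-fold either way and genes without a UMI in NK cells are not drawn for that library, nor is 1 circulation gene. Residency and checkpoint genes lie mostly above 1 and circulation genes mostly below it, with 11 of 17, 12 of 16 and 12 of 15 genes past 2-fold.

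The granzymes of the 2 populations differed in kind. Gzma was at 236 and 284 CPM in Gzmc-high cells and at 6741 and 5385 CPM in NK cells, a ratio of 0.035 (0.032 to 0.038) and 0.053. Gzmb was at 2272 and 2360 CPM against 1154 and 937, 1.97-fold and 2.52-fold higher, and so did not pass 2-fold in both libraries. Gzmd had no UMI in NK cells and was at least 91.4-fold and 54.5-fold higher, taking 3 UMIs as the floor for each library. On the same floor Gzme was at least 60.7-fold and 31.4-fold higher and Gzmg at least 16.0-fold and 5.83-fold. These bounds carry the uncertainty among Gzmd, Gzme, Gzmf and Gzmg described above. The NK gate allowed no UMI of Gzmf, and Gzmd, Gzme and Gzmg were higher in cells with 3 or more Gzmf UMIs. How far the gates themselves set these bounds was not tested. Cma1 and Serpinb9b, a chymase and a granzyme inhibitor family member, were at 2.19 and 1.12 CPM and at 0.627 and 0.374 CPM, against 143 and 140 and 114 and 80.5 CPM in NK cells.

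Checkpoint and costimulatory receptors were higher in Gzmc-high cells, with 12 of the 16 tested past 2-fold and 0 lower, and median log2 ratios of 1.72 and 1.90. Of all genes tested, 4.44% were past 2-fold higher and 2.94% lower. The 12 were Pdcd1, Lag3, Ctla4, Havcr2, Cd96, Tnfrsf9, Icos, Cd200r4, Lilrb4a, Cd38, Cd101 and Nt5e. Lag3, an inhibitory receptor that binds MHC class II, went from 15.1 to 88.4 CPM (5.86-fold) and from 2.82 to 89.8 CPM (31.8-fold). Ctla4, the inhibitory receptor for CD80 and CD86, went from 8.12 to 60.8 and from 5.65 to 55.4 CPM. Both inhibitory receptors were low in NK cells in each library. Tnfrsf9, the costimulatory receptor 4-1BB, went from 177 to 810 and from 243 to 772 CPM, and Nt5e, which encodes the adenosine-producing enzyme CD73, from 25.5 to 159 and from 15.5 to 129 CPM. Pdcd1, which encodes PD-1, was low in both, at 25.7 and 13.9 CPM in Gzmc-high cells, against 6.96 and 0 in NK cells. Ctla4, Icos, Il2ra and Ikzf2 are also the 4 tested markers of regulatory T cells, and all 4 were past 2-fold higher. Foxp3, which defines those cells, was at 0.627 and 0.374 CPM in Gzmc-high cells.

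Of 24 NK receptor genes, 3 were past 2-fold higher (Klra5, Cd226 and Cd96) and 7 lower (Klri2, Klra3, Klra4, Klra7, Klra8, Klra9 and Klrg1). Over all genes tested, the shares were 4.44% higher and 2.94% lower. Klra8, which encodes Ly49H, was at 7.52 and 29.2 CPM against 420 and 642, and Klra4, which encodes Ly49D, at 11.3 and 28.8 against 450 and 634. The activating receptor gene Cd226, encoding DNAM-1, went from 46.4 to 154 and from 36.7 to 153 CPM. Ly49 genes were therefore mostly lower, with Klra5 as the exception at 56.1 and 85.3 CPM against 15.1 and 0. Likeness among the Klra transcripts was not checked, so the separate levels of these genes are uncertain. Receptors common to both populations did not pass 2-fold: Ncr1 had ratios of 0.84 (0.70 to 1.02) and 0.68 (0.57 to 0.82), and Klrd1, which encodes CD94, was at 752 and 858 against 550 and 707 CPM. Of 9 innate signalling adaptors, 0 were higher and 1, Syk, was lower.

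Secreted factors differed in both directions, with 8 of 16 past 2-fold higher and 4 lower, against 4.44% and 2.94% of all genes. Xcl1 was at 2988 and 3238 against 1219 and 1253 CPM, 2.45-fold and 2.58-fold higher. Ltb, which encodes lymphotoxin beta for lymphoid tissue organisation, was at 223 and 302 against 51.0 and 97.4 CPM. Spp1, osteopontin, is outside that list and was at 417 and 505 against 118 and 32.5 CPM, with 80.4% of its normal adjacent NK UMIs in 1 cell. Without cells of another lineage it was at 357 and 691 against 30.0 and 34.9 CPM. Ccl1, a chemokine, was at 59.6 and 69.3 against 1.16 and 0 CPM, with 36.3% and 75.7% of its UMIs in 1 cell. Areg, the epithelial growth factor amphiregulin, was at 60.8 and 91.3 against 24.4 and 11.3 CPM. The factors typical of activated NK cells were lower. Ifng, interferon-gamma, was at 66.1 and 40.1 against 226 and 308 CPM, and Ccl5 at 2774 and 3247 against 12345 and 9722 CPM. Ccl4 was at 514 and 763 against 2411 and 2906 CPM, and Ccl3 at 60.2 and 66.3 against 280 and 390 CPM. Il5 and Il13, cytokines of type 2 innate lymphoid cells, had no UMI in Gzmc-high cells of either library. Leaving out cells with 0.2% or more of UMIs from another lineage gave 3 higher and 4 lower of the 11 secreted factors still tested.

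Of 23 transcription factors, 3 were past 2-fold higher (Ikzf2, Rora and Bcl11b) and 6 lower (Tcf7, Lef1, Bach2, Irf8, Nr4a1 and the gate gene Eomes). All genes tested gave 4.44% higher and 2.94% lower. Ikzf2, which encodes Helios, was at 364 and 356 against 34.8 and 50.8 CPM, 10.4-fold and 7.00-fold higher. Rora was at 325 and 194 against 55.7 and 38.1 CPM. Tcf7, which encodes TCF1, was at 9.09 and 7.11 against 37.1 and 69.2 CPM, and Irf8 at 666 and 734 against 1646 and 1623 CPM. Tbx21 did not differ by 2-fold, with ratios of 1.22 and 1.11, and Runx3 was at 408 and 426 against 397 and 495 CPM. Among cytokine receptors, Il2ra, Il7r and Il21r were higher and Il10ra, Il18r1, Il18rap and Il17ra lower, of 16. Il18rap, a chain of the interleukin-18 receptor, was at 20.7 and 11.98 against 124 and 131 CPM, and Il2rb, the shared chain for interleukins 2 and 15, was at 1063 and 1198 against 1011 and 1183 CPM.

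Metabolic, stress and interferon lists gave 0 or 1 call each way when both libraries had to go the same way. Of all genes tested, 4.44% were past 2-fold higher and 2.94% lower, and counts this close to those shares are not read as results. Heat shock and immediate-early genes gave 0 of 17 past 2-fold the same way in both libraries. Some were past 2-fold in opposite directions, with ratios of 0.248 and 2.09 for Egr1, 0.383 and 2.52 for Atf3, and 3.91 and 0.303 for Hspa1a. Oxidative phosphorylation gave 0 higher and 1 lower of 14, the hypoxia and glycolysis list 1 higher (Hk2) and 1 lower (Pfkp) of 14, and the interferon list 1 higher (Isg15) and 0 lower of 13. The TGF-beta list gave 4 higher (Ldlrad4, Itgae, Itga1 and Gpr34) and 4 lower of 12. Ldlrad4, Itgae and Itga1 are also among the higher genes of the residency list. Smad7, an inhibitor of the TGF-beta pathway, was at 280 and 280 against 713 and 665 CPM. Cell cycle genes gave 7 of 17 past 2-fold higher, but 0 of the 6 still tested at 2000 UMIs per cell. Mki67, a proliferation marker, was at 36.0 and 43.8 against 4.64 and 19.8 CPM, and 19 and 14 Gzmc-high cells had 3 or more UMIs of Mki67 and Top2a.

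Genes outside these lists with the firmest differences came from several functions. S100a4, a calcium-binding protein of motile cells, went from 145 to 1178 CPM (8.12-fold, 6.80 to 9.79) and from 168 to 1316 CPM (7.84-fold, 6.53 to 9.49). Hilpda, a lipid droplet protein, went from 98.6 to 658 and from 80.5 to 619 CPM, and Sema6d, a semaphorin, from 20.9 to 226 and from 9.88 to 228 CPM. Igflr1, a receptor of the tumour necrosis factor receptor type, went from 8.12 to 160 and from 1.41 to 183 CPM. All 4 were higher in both libraries. Ly6g5b went from 2.32 to 49.2 CPM, and in tumour from 0 to 45.7 CPM, at least 10.8-fold. Among the lower genes, Myb, a progenitor transcription factor, was at 2.19 and 4.12 against 97.4 and 98.8 CPM, and Pde2a, a cyclic nucleotide phosphodiesterase, at 12.9 and 12.7 against 191 and 195 CPM.

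Other cell types were also represented in the Gzmc-high barcodes. Markers of dendritic cells took 6870 and 7273 CPM against 2309 and 3516 in NK cells, with 4 of 7 past 2-fold higher (Cd209a, H2-Aa, H2-Ab1 and Cd74). The share of all genes past 2-fold higher was 4.44%. Stromal and endothelial markers took 290 and 584 against 46.4 and 56.5 CPM, with 3 of 3 higher (Col1a2, Dcn and Pecam1). Pecam1 differed between CD3 classes of the Gzmc-high cells, as given above, and whether it marks another cell type in these barcodes was not tested. Macrophage markers took 826 and 962 against 851 and 1515 CPM, neutrophil markers 173 and 180 against 180 and 299, B cell markers 194 and 384 against 75.4 and 443, and epithelial markers 504 and 509 against 1203 and 100.2. Defining markers with no UMI in the Gzmc-high cells included Pdgfra in normal adjacent tissue and Ms4a1, Pax5, Cxcr2 and Cdh5 in tumour. Barcodes with 0.2% or more of UMIs from another lineage numbered 50 (20.5%) and 49 (21.0%) of Gzmc-high cells and 39 (26.7%) and 36 (27.1%) of NK cells. Without them 366 genes were higher and 256 lower, of which 245 and 191 were also called with all cells. Itgae then had ratios of 65.5 and 21.9, Cxcr6 13.1 and 30.9, S100a4 8.21 and 12.5 and Gzma 0.039 and 0.073, while Dcn and Apod reversed. With only the Gzmc-high cells lacking CD3, 257 genes were higher and 228 lower, of which 209 and 180 were also called with all cells. Itgae there had ratios of 78.2 and 23.0 and Gzma 0.011 and 0.023.

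Gzmc-high cells made up 3.93% (3.46 to 4.44) of kept cells in normal adjacent tissue and 2.999% (2.63 to 3.40) in tumour, a difference of -0.930 percentage points (-1.55 to -0.322). Among T and NK lymphocytes they made up 11.2% (9.94 to 12.6, 244 of 2171) and 11.1% (9.77 to 12.5, 231 of 2084), a difference of -0.155 points (-2.05 to 1.74). The interval of the lymphocyte share includes 0. The share of all kept cells depends on the ratio in which sorted fractions were loaded. Because the limits are on UMIs per cell, fewer cells of this kind and less granzyme mRNA per cell cannot be told apart at the edge of the gate.

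Within Gzmc-high cells, 387 of 7592 genes were at least 1.5-fold higher in tumour (5.1%) and 196 at least 1.5-fold lower (2.58%). In 57 and 49 of these, 1 cell held 50% or more of the UMIs. The genes with the firmest counts were mostly of this kind and belong to other cell types. Igfbp5, an insulin-like growth factor binding protein of stroma, went from 1.25 to 89.5 CPM with 90.4% of its UMIs in 1 cell, and Krt15, a basal epithelial keratin, from 35.7 to 237 CPM with 56.0% in 1 cell. The seminal vesicle secretory genes Svs4 and Svs5 went from 1116 to 9.36 and from 3257 to 45.7 CPM, with 97.6% and 98.2% of the normal adjacent UMIs in 1 cell. Egr1, an immediate-early transcription factor, went from 48.9 to 197 CPM (4.03-fold, 3.37 to 4.86), and from 41.8 to 76.8 CPM without cells holding 0.2% or more of another lineage.

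The counts for the granzyme and checkpoint lists changed when cells holding 0.2% or more of another lineage were left out. With all cells, 3 of 15 granzyme and cytolytic genes were past 1.5-fold lower in tumour (Gzme, Gzmf and Gzmg) and 0 higher. The share of all genes past 1.5-fold lower was 2.58%. Gzme went from 211 to 133 CPM, Gzmg from 55.8 to 24.7 CPM and Gzmf, a gene of the rule, from 625 to 292 CPM. Of 16 checkpoint receptors, 2 were lower, Pdcd1 from 25.7 to 13.9 CPM and Havcr2 from 16.3 to 8.98 CPM. Without cells holding 0.2% or more of another lineage (194 and 184 left), 278 of 6466 genes were past 1.5-fold higher in tumour (4.3%) and 164 lower (2.54%). There 0 of 15 granzyme genes and 0 of 14 checkpoint receptors passed 1.5-fold, and Gzmf was at 418 and 389 CPM. As given above, 1 cell in each library held a large part of the Gzmf UMIs with all cells. The largest Gzmc and Gzmf count of a normal adjacent cell was 1984 with all cells and 1406 without those of another lineage. How far single cells set the change in these counts was not tested. Gzmc, which chose the cells in both libraries and so is only described, had a ratio of 0.97 (0.96 to 0.98) with all cells and 1.03 without those of another lineage. Of 17 residency genes 1, Tnfsf10, was higher in both analyses. That count is near the 5.1% and 4.3% of all genes past 1.5-fold higher, and is not read as a result about the list.

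Without cells of another lineage, 31 higher and 18 lower genes were spread over cells, with no cell holding over 10% of the UMIs and 50 CPM or more. This selection was made after values had been seen, and with all cells 13 of the 31 and 7 of the 18 passed 1.5-fold. Rab21, an endosomal GTPase, passed in both, from 40.0 to 93.4 CPM (2.34-fold, 1.80 to 3.05), and 2.21-fold with all cells. In NK cells Rab21 had a ratio of 1.29 (0.803 to 2.09) without cells of another lineage, and went from 53.4 to 86.1 CPM with them. Ier5l, Serpina3g and Fam102a also passed in both, with ratios of 1.74, 1.61 and 1.64, and 1.61, 1.56 and 1.54 with all cells. Their ratios in NK cells were 1.74, 1.53 and 0.60 without cells of another lineage. Ccl4, Ltb, Nfkb1 and Malt1 passed only without cells of another lineage. Ccl4, a chemokine of activated lymphocytes, went from 480 to 784 CPM (1.63-fold, 1.51 to 1.77), and its ratio was 1.48 with all cells. In NK cells the ratio of Ccl4 was 1.01 without and 1.21 with cells of another lineage. Ltb went from 234 to 355 CPM (1.52-fold, 1.35 to 1.71), and its ratio was 1.36 with all cells and 1.91 in NK cells either way. Nfkb1 and Malt1, members of the NF-kappaB pathway, had ratios of 1.55 (1.36 to 1.76) and 1.62 (1.42 to 1.84), and 1.30 and 1.38 with all cells. In NK cells Nfkb1 had 1.41 and 1.40 with all cells, and Malt1 had 1.05 and 1.26 with all cells. The differences between Gzmc-high and NK cells in these ratios were not tested.

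Fewer spread genes were lower in tumour. Rora went from 330 to 214 CPM, 1.54-fold lower, with a ratio of 0.60 when all cells were used. Tiparp, an aryl hydrocarbon receptor target, went from 225 to 133 CPM (1.70-fold lower), with ratios of 0.60 with all cells and 0.61 in NK cells. Idh3b, a subunit of mitochondrial isocitrate dehydrogenase, went from 75.5 to 34.9 CPM, and Nop56, a ribosome biogenesis factor, from 131 to 65.5 CPM. These 4 genes were past 1.5-fold lower in Gzmc-high cells with and without cells of another lineage. In NK cells without those of another lineage, the ratio was 0.70 (0.400 to 1.21) for Rora, 0.94 (0.554 to 1.57) for Idh3b and 0.68 (0.443 to 1.03) for Nop56. Bcl2a1b, a survival factor, went from 310 to 206 CPM (1.51-fold lower), but its ratio was 0.70 with all cells, and 0.56 and 0.92 in NK cells without and with cells of another lineage. Klf2, which lies outside that selection, went from 102 to 52.1 CPM (1.96-fold lower) and, with all cells, from 132 to 81.6 CPM. Spp1 passed 1.5-fold only without cells of another lineage, from 357 to 691 CPM (1.94-fold, 1.77 to 2.12), while with all cells it was at 417 and 505 CPM, a ratio of 1.21.

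**Figure D5:**
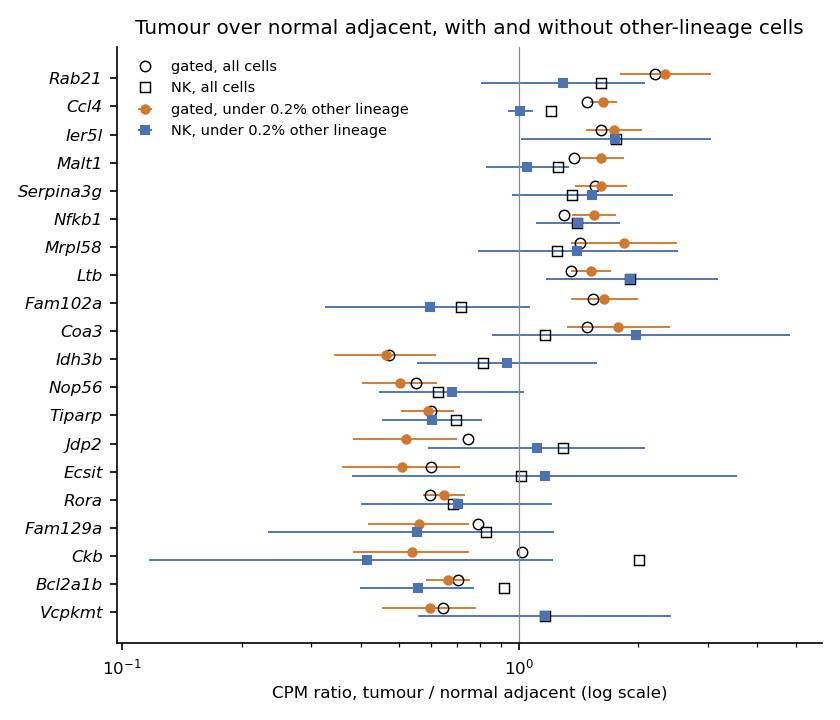
Ratio of CPM in tumour to normal adjacent tissue (log axis) for the 10 genes each way with the firmest ratios among those spread over cells, in Gzmc-high (gated) and conventional NK cells; filled points leave out cells with 0.2% or more of UMIs of another lineage, with 95% exact intervals, and open points use all cells. Rab21, Idh3b and Tiparp keep nearly the same ratio in Gzmc-high cells either way, while Malt1 is at 1.62 without and 1.38 with cells of another lineage.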

How the data were processed

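The authors deposited raw UMI counts of each gene in each barcode for both libraries, made with the Single Cell 3' v2 kit according to the labels. The file headers give Cell Ranger 4.0.0. Per the submitters' processing notes, R 4.0.3 and Seurat 3.2.2 were also used and the build was GRCh38, a human build, although the features are mouse genes. Which mouse build was used is not given in the sources used here. The libraries held 6553 and 8237 barcodes with 77855775 and 92188538 UMIs. Kept barcodes had at least 200 genes, which 21 and 55 lacked, and at most 20% mitochondrial UMIs, which 337 and 459 exceeded. The libraries shared 18 barcodes, none of them Gzmc-high. Of 458 and 466 cells with 10 or more UMIs of Gzmc and Gzmf, 167 and 191 exceeded the C1q, S100 or Cd79a limit and 47 and 42 the Cd8 limit alone. No doublet caller was run, and barcodes with markers of another lineage were counted instead.

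UMIs were summed per library and population and divided by the total, as CPM. Genes with 20 UMIs or more in each library (NK cells, CD3 classes) or 50 in all (tissues) were compared. Shares have exact Clopper-Pearson intervals, their differences Newcombe intervals, levels exact Poisson intervals and ratios exact conditional binomial intervals. T and NK lymphocytes had 3 or more UMIs of Cd3d, Cd3e, Cd3g, Trac, Trbc1, Trbc2, Ncr1, Nkg7 and Klrb1c together, under the C1q, S100 and Cd79a limits. The genes named were the 12 firmest each way by interval bound against NK cells, 10 each way between tissues, 8 each way between CD3 classes, the lineage genes, the markers and members of each list, and further genes were chosen after their values were seen. Members and lists were chosen with earlier results of these data known. Alternatives changed the gate, limits, depth, filters and totals. Python 3.11.15, NumPy 2.4.6, SciPy 1.17.1, pandas 2.3.3, Biopython 1.88 and matplotlib 3.10.9 were used. The ratio step was tested on simulated data. Single-gene results for some list members are not reported here.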

Additional observations from a re-analysis of the deposited data

Results flagged for a closer look

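Among the named genes and those of the lists, 8 were at least 2-fold higher in Gzmc-high than NK cells in 1 library and at least 2-fold lower in the other, with both intervals off 1, and these differences between libraries were not tested. Pigr, the epithelial antibody transporter, had a ratio of 0.0329 in normal adjacent tissue and 3.20 in tumour, with 73.9% and 53.5% of the Gzmc-high UMIs in 1 cell. Lcn2, the iron-binding lipocalin, had 0.378 and 15.9, with 71.4% and 48.3% in 1 cell. The seminal vesicle genes Svs4 and Svs5 had 21.9 and 0.442, and 22.5 and 0.156, with 97.6% and 98.2% in 1 normal adjacent cell. These 4 genes are epithelial or secretory. Among stress genes, Hspb1 had 0.213 and 5.75, Hspa1a 3.91 and 0.303, Atf3 0.383 and 2.52, and Egr1 0.248 and 2.09. One cell held 68.3% and 58.9% of the Hspb1 UMIs, 25.1% and 47.5% for Hspa1a, 48.2% and 32.3% for Atf3, and 9.62% and 17.3% for Egr1, the most widely spread of the 8.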

How the results depend on the processing

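No paired analysis was possible because each group has 1 library, although both titles carry the same number. Leaving out every cell with 3 UMIs of another lineage kept only 17 and 21 Gzmc-high cells and gave 75 genes higher and 114 lower against NK cells, 101 and 82 between tissues, and a difference in the share of kept cells of -0.00346 points. Thinning to 2000 UMIs gave 167 higher against NK cells, and 114 and 86 between tissues. A filter of 50 UMIs gave 225 higher against NK cells, one of 20 UMIs gave 855 and 454 between tissues, and an NK gate without limits gave 396 lower. The CD3 classes gave 31 higher without cells above the 95th percentile of UMIs, 26 without cells holding 0.2% of another lineage (added after the data were seen), and 14 lower with a gate of 0.2% of UMIs. These settings test fewer or more genes and cells by construction. Cd3e at 2000 UMIs was 0% and 0% with the 3-UMI limit and 20.1% and 18.8% without the Cd8 limit. Ncr1 was 15.2% and 16.4% at 1000 UMIs and 20% in tumour with the 3-UMI limit. Signs reversed for these log2 ratios, and the cause was not tested: with the 3-UMI limit, tumour Apod against NK cells -0.0026, and Lcn2 -1.59 and Egr1 -0.19 between tissues; with the 0.2% limit, Dcn -0.99 and -0.89, Apod -1.62 and -1.85, Igfbp6 -3.43 and Sval1 0.27; without CD3 cells, Apod -0.91, Igfbp6 -3.23 and Sval1 0.041; without the Cd8 limit, Mgp -0.0043; without the deepest cells, Sval1 0.14; with a gate of 20 UMIs, Gzma between CD3 classes -0.27. The CD3 split was not run with the 3-UMI limit or on Trac and Trbc genes, which left under 10 cells in a class. Of the 48 named ratios against NK cells, 38 stayed within their interval under the 0.2% limit, 6 moved in the same direction and 4 reversed. Depth limits genes with few UMIs in NK cells, such as Itgae, whose interval runs from 23.7 to 711.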

Other observations

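The cells that only the Cd8 limit left out (47 and 42) shared the residency integrin of the Gzmc-high cells, with Itgae in 93.6% and 95.2%. Cd8a was detected in 100% and 100% of them, Cd8b1 in 48.9% and 31.0% and Ncr1 in 27.7% and 23.8%. Their Xcl1 level was 2924 and 4008 CPM. A further 594 and 369 cells carried 1 to 9 UMIs of Gzmc and Gzmf under the same limits.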
